A study of Mus musculus with 6 samples.

Results

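The 10 genes described here encode the effector cytokines, chemokines and death ligands of cytotoxic T cells: Ifng, Tnf, Csf2, Il10, Fasl, Tnfsf10, Ccl3, Ccl4, Ccl5 and Xcl1. They were taken by name, with earlier results of these data known. The deposited tables held 55471 genes, of which 55144 had a symbol in the GENCODE M21 annotation. All 10 passed the filter on low counts and belong to the 12546 genes that were tested.

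CD8+ T cells act on tumour cells and on neighbouring immune cells through secreted and membrane-bound messengers. Interferon-γ and tumour necrosis factor (TNF) act on target cells and macrophages, and GM-CSF, the product of Csf2, drives the growth and activation of myeloid cells. FAS ligand and TRAIL bind death receptors, and the chemokines CCL3, CCL4, CCL5 and XCL1 attract myeloid cells, lymphocytes and cross-presenting dendritic cells. Messages of several of these genes are short-lived, because proteins that bind AU-rich elements in the 3′ untranslated region promote their decay.

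The samples were OT-I T cells, whose transgenic T cell receptor recognises a peptide of ovalbumin, from mice with a Cas9 knock-in. In the sgElovl1 group the cells carried a lentiviral guide against Elovl1, which encodes an elongase of very long-chain fatty acids, and in the sgNT group a non-targeting guide from the same kind of vector, marked by CD90.1. All recipients bore an orthotopic tumour of KPC_OVA, an ovalbumin-expressing pancreatic ductal adenocarcinoma line, and all were given anti-PD-1 from the day after transfer. At day 7 after transfer CD90.1+ cells were sorted from the primary tumour, and RNA pre-amplified with the SMARTer kit gave 3 libraries per group. The first 2 sgElovl1 libraries each pool RNA from 2 tumours, whereas the other 4 libraries came from 1 mouse each, so P values measure the spread between these samples. The mice of the study were 6 to 12 weeks old and not selected by sex, and the labels give neither age nor sex per library. Every library came from anti-PD-1-treated animals, so no untreated level is given. Where 3 values of a group are listed, they follow the order of its replicates 1, 2 and 3.

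Libraries held between 21980273 and 26059360 expected counts in sgElovl1 and between 24121976 and 26165380 in sgNT cells. Elovl1 averaged 84.5 ± 9.71 CPM (counts scaled to a library of 1000000) in sgElovl1 and 272 ± 15.5 CPM in sgNT libraries (SD, n = 3 each), without overlap (log2 fold change −1.69, adjusted p = 8.71e-05). In a principal component analysis, the component with the largest share (44.7%) parted the groups. The component with the second largest share (29.1%) placed replicate 3 of each group away from the other libraries. Within sgElovl1, replicate 3 was also the only library not pooled, so pooling and replicate cannot be told apart there. Replicate 3 also held the largest sum of 6 tumour epithelium markers in each group, with 32.3, 43.1 and 324 CPM in sgElovl1 and 50.5, 44.1 and 1036 CPM in sgNT libraries, and its part in the results was not tested. CD8 T cell markers were abundant in every library, with a summed level over 8 genes of 10080 to 11520 CPM in sgElovl1 and 13130 to 13870 CPM in sgNT libraries. Of those 8, Cd8a, Cd8b1, Trac and Cd247 were lower and Cd3e was higher in sgElovl1 cells. Cd4 stayed at 0.238 ± 0.129 CPM in sgElovl1 and 0.431 ± 0.642 CPM in sgNT libraries. The sum of 14 macrophage and monocyte markers was 106, 170 and 332 CPM in sgElovl1 libraries, against 45.4, 64.7 and 75.1 CPM in sgNT libraries, and Adgre1 had no count in any sgNT library. Of 11 tested, 10 had positive fold changes and 3 were called, Adgre1, C1qa and Fcgr1. Lyz2, the largest in sgElovl1 (means of 96.8 CPM in sgElovl1 and 7.90 CPM in sgNT), did not pass (adjusted p = 0.0959). Cd68, the largest in sgNT, went the other way (31.95 CPM in sgElovl1 and 40.4 CPM in sgNT, adjusted p = 0.159). The sort on CD90.1, the marker of the vector, was meant to leave out host macrophages, monocytes and the other cell types whose markers are given beside the results. In bulk RNA, fewer cells of a type cannot be told apart from less RNA per cell.

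Per unit of transcript length, chemokine messages dominated the set in every library. Levels between genes are given as TPM, which scales counts by transcript length and by library. Ccl5 stood at 7190, 7372 and 4074 TPM in sgElovl1 libraries and at 7040, 7382 and 6279 TPM in sgNT libraries, which placed it between rank 8 and rank 26 of all genes. Ccl4 followed with 3666, 3620 and 4522 TPM in sgElovl1 and 4682, 3920 and 4013 TPM in sgNT libraries (ranks 19 to 28). Only in sgElovl1 replicate 3 did Ccl4 exceed Ccl5.

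Xcl1 had rank 3 among the members in all 6 libraries, with 1313 to 2987 TPM in sgElovl1 and 964 to 1340 TPM in sgNT libraries, and Ccl3 rank 4, with 613 to 746 TPM in sgElovl1 and 777 to 813 TPM in sgNT libraries. The 4 chemokines together made up 91.6 to 94.7% of the summed TPM of the set in sgElovl1 and 93.7 to 94.8% in sgNT libraries. Ifng (413 to 519 TPM in sgElovl1, 328 to 470 TPM in sgNT) and Fasl (318 to 417 TPM in sgElovl1, 303 to 419 TPM in sgNT) shared ranks 5 and 6. Their ranges overlapped in both groups, and Ifng exceeded Fasl in every library but sgNT replicate 2. The other 4 genes lay far lower, and their order differed between the groups. Csf2 had rank 7 in every sgElovl1 library, at 37.9, 16.9 and 18.9 TPM, but rank 9 or 10 in the sgNT libraries, at 6.67, 4.73 and 6.79 TPM. Tnfsf10 (7.50 to 14.01 TPM in sgElovl1, 10.99 to 13.5 TPM in sgNT) and Tnf (8.49 to 12.01 TPM in sgElovl1, 7.03 to 8.31 TPM in sgNT) were close to each other. Il10 was the lowest member in all 3 sgElovl1 libraries, at 0.87, 4.05 and 4.08 TPM, and had 7.17, 8.61 and 4.56 TPM in the sgNT libraries.

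**Figure D1:**
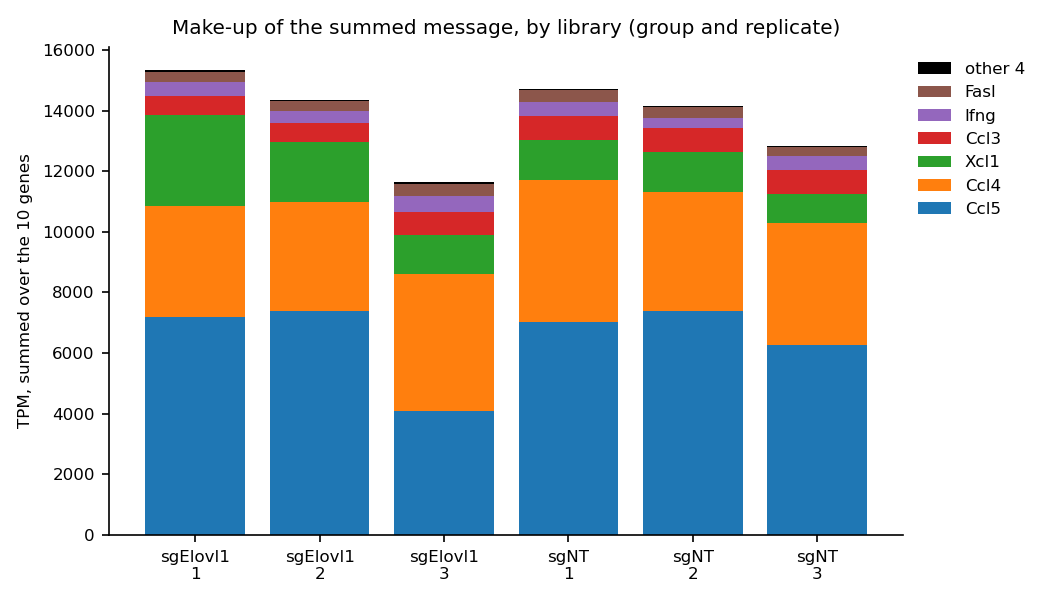
Stacked bars give the TPM of the 10 genes summed in each library, with the 4 least abundant genes (Csf2, Tnfsf10, Tnf and Il10) drawn together. Ccl4 and Ccl5 made up 70.8 to 76.6% of the bar in the sgElovl1 and 79.6 to 80.2% in the sgNT libraries, and Xcl1 11.3 to 19.5% in the sgElovl1 and 7.51 to 9.46% in the sgNT libraries.

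AU-rich elements are the sequence feature for which this family is best known. They were counted in the longest 3′ untranslated part among each gene's coding GENCODE M21 transcripts. The motifs were read on the sense strand with overlaps allowed: the pentamer ATTTA and the heptamer TATTTAT, which contains it. The windows below show the 30 bases with the most pentamers for the cytokine genes Csf2, Tnf and Ifng, which hold runs of the motif, and for the chemokine genes Ccl3 and Xcl1, which hold 1 heptamer each in the whole untranslated part (that of Ccl3 lies outside its window), with ATTTA in capitals.
Csf2: aaatATTTATTTATTTATTTATTTAttttt
Tnf: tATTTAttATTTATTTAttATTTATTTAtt
Ifng: ctATTTAttaatATTTAaaactATTTAtat
Ccl3: ttgaaattttATTTAATTTAatcctattgg
Xcl1: aaatgttataagtaataaatATTTAttatt
On GRCm38 these lie at chr11:54247324-54247353 (minus strand) for Csf2, chr17:35199677-35199706 (minus) for Tnf, chr10:118445333-118445362 (plus) for Ifng, chr11:83648075-83648104 (minus) for Ccl3 and chr1:164931649-164931678 (minus) for Xcl1.

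Csf2 carried 9 pentamers and 9 heptamers in 317 bases, and 0.096% of 1044 tested genes of like length (within 25%) had as many. The like-length genes of this and the following shares include the member itself. Tnf carried 8 of each in 764 bases (0.18% of 1671 like-length genes had as many pentamers and 0.06% as many heptamers). Ifng had 6 pentamers and 4 heptamers in 631 bases, and Il10 the same numbers in 706 bases, where 0.527% and 0.496% of like-length genes had as many heptamers. The remaining genes held 5 pentamers and 1 heptamer (Ccl3), 8 and 3 in a much longer sequence of 3998 bases (Tnfsf10), 2 and 1 (Ccl4), 1 and 1 (Fasl, Xcl1) or no match in 199 bases (Ccl5). Among 11114 tested genes of any length, 69.8% had a pentamer and 29.6% a heptamer. A match describes letters in this window and is not evidence of binding.

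The comparison of sgElovl1 with sgNT cells asks which of these messages differ in T cells that carry the Elovl1 guide. Of the 10 genes, 1 was higher and 0 were lower at an adjusted p under 0.05 in edgeR's quasi-likelihood test, where 13.8% of all tested genes were called, 8.64% as higher and 5.13% as lower. The gene that passed was Csf2. At an unadjusted p under 0.05 the counts were 1 higher and 1 lower, with DESeq2 1 higher and 1 lower, and with limma-voom 1 higher and 0 lower. Libraries of the groups did not overlap for 1 gene on the higher side (Csf2) and for 2 genes on the lower side (Il10 and Ccl3), against 19.4% and 17.7% of all tested genes and 37.1% in either direction. The members had a median log2 fold change of −0.09 and a median absolute change of 0.29, against −0.0041 and 0.29 over all tested genes.

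**Figure D2:**
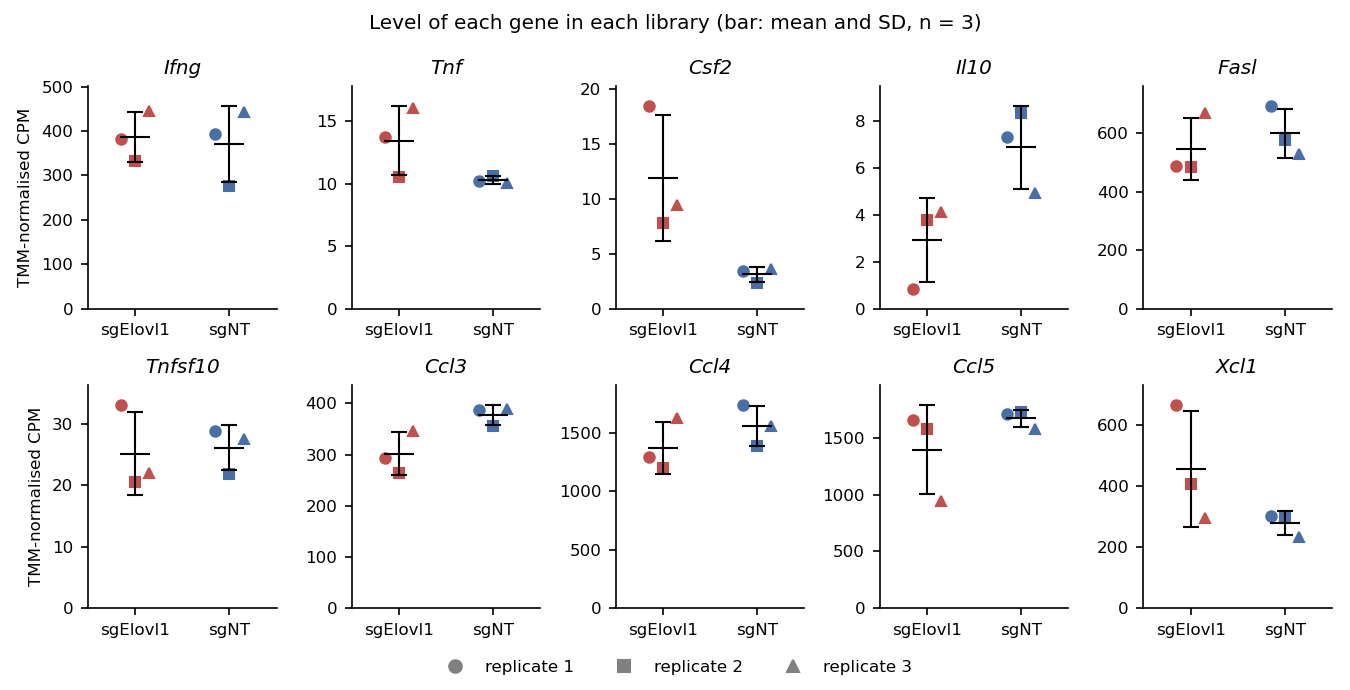
Normalised CPM of each of the 10 genes in each library, with sgElovl1 left and sgNT right in every panel, symbols for the replicate number, and bars for the mean and SD (n = 3). All sgElovl1 values of Csf2 lie above, and those of Il10 and Ccl3 below, all sgNT values, and the other 7 genes overlapped.

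Ifng, the hallmark cytokine of these cells, had overlapping levels in the groups. It stood at 381, 333 and 445 CPM in sgElovl1 libraries and 393, 276 and 442 CPM in sgNT libraries. The second library was the lowest and the third the highest in each group, and the ranges overlapped almost fully. The log2 fold change was 0.06, with a 95% interval from −0.33 to 0.45 (adjusted p = 0.843). A rise beyond about 1.36-fold or a fall below 0.797-fold thus lies outside the interval. The sign turned without sgElovl1 replicate 3 (−0.055) and without sgNT replicate 2 (−0.10). Ifng lies on chromosome 10 from 118441046 to 118445892 and overlaps the same-strand gene Gm49751, which shares 16.2% of its 75-base windows. Gm49751 itself had 129, 103 and 98.0 expected counts in sgElovl1 and 43.0, 16.0 and 47.0 in sgNT libraries, against 9893, 9132 and 9728 for Ifng in the same sgElovl1 libraries.

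Tnf, the founding member of its ligand family, was a low message in these cells. Its 3 sgElovl1 libraries had 13.7, 10.5 and 16.1 CPM and its sgNT libraries 10.2, 10.6 and 10.1 CPM. The sgNT values were nearly equal, and sgElovl1 replicate 2 fell inside their range while replicates 1 and 3 lay above it. The log2 fold change of 0.38 (95% interval −0.02 to 0.78) did not pass (adjusted p = 0.172), and no alternative called it (0.21 to 0.53). Ifng message exceeded Tnf message 42.6, 48.6 and 43.2 times in sgElovl1 and 59.1, 39.5 and 66.8 times in sgNT libraries, as a ratio of TPM.

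Csf2 was the member with the clearest difference. It had 479, 214 and 206 expected counts in sgElovl1 libraries, against 80, 59 and 88 in sgNT libraries. In normalised units these were 18.4, 7.79 and 9.42 CPM in sgElovl1 and 3.41, 2.30 and 3.64 CPM in sgNT libraries. The lowest sgElovl1 library was above the highest sgNT library, and sgElovl1 replicate 1 stood well above the other sgElovl1 libraries. The fold change was 3.81 (95% interval 2.27 to 6.43), or 1.93 on the log2 scale (SE 0.34, adjusted p = 0.00751). Without sgElovl1 replicate 1, its highest library, the log2 fold change was 1.46 and still passed. Of 16 alternatives 15 called it, and the exception was the fit without sgNT replicate 2, with a log2 fold change of 1.77 (adjusted p = 0.0618, range over the alternatives 1.5e-06 to 0.0618).

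Set against Ifng, whose levels overlapped between the groups, Csf2 showed the same difference again. The TPM of Ifng was 11.95, 24.5 and 27.5 times that of Csf2 in sgElovl1 libraries, and 67.0, 69.4 and 69.2 times in sgNT libraries, with no overlap. Csf2 lies on chromosome 11 from 54247271 to 54249667 (minus strand) and overlaps Gm12223 on the opposite strand, which had no count in any library. Macrophage and monocyte markers, as given above, summed to 106 to 332 CPM in sgElovl1 and 45.4 to 75.1 CPM in sgNT libraries. Mast cell and basophil markers, from cells that can also make GM-CSF, summed to 10.9, 11.4 and 17.5 CPM in sgElovl1 and 3.79, 3.28 and 5.92 CPM in sgNT libraries over 6 genes, of which Ms4a2, Mcpt4 and Fcer1a had no count in any library. The other 3 did not overlap between the groups, and 2 of them were called higher, Cpa3 with 3.10 ± 0.570 CPM in sgElovl1 and 0.456 ± 0.195 CPM in sgNT libraries (n = 3 each, adjusted p = 0.00321) and Kit with 9.67 ± 2.93 CPM in sgElovl1 and 3.67 ± 1.20 CPM in sgNT libraries (n = 3 each, adjusted p = 0.0125). Neutrophil markers summed to at most 3.61 CPM in sgElovl1 and 0.639 CPM in sgNT libraries. The part of these cells in the Csf2 result was not tested.

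Il10, which encodes an anti-inflammatory cytokine, differed in the opposite direction at low counts. It had 22, 104 and 90 expected counts in sgElovl1 libraries, against 172, 214 and 119 in sgNT libraries, or 0.847, 3.79 and 4.12 CPM in sgElovl1 and 7.33, 8.34 and 4.93 CPM in sgNT libraries. The groups did not overlap, although sgElovl1 replicate 3 and sgNT replicate 3 were close, and sgElovl1 replicate 1 was far below all others. Its log2 fold change of −1.24 had a wide 95% interval, from −2.49 to 0.02, and did not pass (adjusted p = 0.16). DESeq2 called it (−1.25, adjusted p = 0.0358), and the value without sgElovl1 replicate 1 was −0.80 (adjusted p 0.0358 to 0.35 over the alternatives). Foxp3, a marker of regulatory T cells, which can make IL-10, was also lower, at 1.73 ± 0.604 CPM in sgElovl1 and 5.53 ± 2.79 CPM in sgNT libraries (n = 3 each, adjusted p = 0.0201), and Cd4 itself was near 0. Of the 5 tested genes of the CD4 and regulatory T cell list, 4 had positive fold changes. Cd40lg, 1 of these, was called higher (log2 fold change 2.07, adjusted p = 0.0121). The sum over 6 CD4 and regulatory T cell markers was 1463 to 1523 CPM in sgElovl1 and 1182 to 1683 CPM in sgNT libraries. Nearly all of it came from Ctla4 (means of 1313 CPM in sgElovl1 and 1301 CPM in sgNT libraries) and Il2ra (176 CPM in sgElovl1 and 127 CPM in sgNT libraries), which activated CD8+ T cells also express. Their part in the Il10 values was not tested.

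Neither death ligand differed beyond the spread. Fasl, whose product triggers apoptosis through the FAS receptor, had 489, 483 and 669 CPM in sgElovl1 libraries and 692, 577 and 529 CPM in sgNT libraries. The highest sgElovl1 library was replicate 3 and the highest sgNT library was replicate 1, and the ranges overlapped. Its log2 fold change was −0.13 (95% interval −0.48 to 0.21, adjusted p = 0.599). Without replicate 3 of both groups it was −0.39 and passed (adjusted p = 0.0147, range over the alternatives 0.0147 to 0.991), in a fit that called 31.5% of all genes.

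Tnfsf10, which encodes TRAIL, had 33.0, 20.5 and 21.9 CPM in sgElovl1 and 28.8, 21.9 and 27.6 CPM in sgNT libraries. Within sgElovl1 the first library was high, and the second lay below all sgNT libraries. Its change of −0.05 on the log2 scale (95% interval −0.47 to 0.36, adjusted p = 0.875) turned sign in 5 of 16 alternatives and lay between −0.30 and 0.075 in all of them. As a ratio of TPM, Fasl exceeded Tnfsf10 22.9, 42.5 and 40.5 times in sgElovl1 and 31.0, 33.9 and 25.4 times in sgNT libraries.

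Of the chemokines, the linked genes Ccl3 and Ccl4 showed lower means in sgElovl1 cells, and neither passed. Both encode inflammatory CC chemokines, and the genes lie 13228 bases apart on chromosome 11, with Ccl5 a further 117325 bases away. Ccl3 had 294, 264 and 347 CPM in sgElovl1 libraries, against 387, 355 and 388 CPM in sgNT libraries. Each sgElovl1 library was below each sgNT library, with a narrow gap between sgElovl1 replicate 3 and sgNT replicate 2. The fold change was 0.800 (95% interval 0.660 to 0.970, log2 −0.32, adjusted p = 0.106). Ccl3 passed without sgElovl1 replicate 3 (−0.44, adjusted p = 0.0189) and without replicate 3 of both groups (−0.41, adjusted p = 0.00853), fits that called 21.1% and 31.5% of all genes (range over the alternatives 0.00853 to 0.384).

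Ccl4 had 1291, 1202 and 1625 CPM in sgElovl1 and 1734, 1388 and 1555 CPM in sgNT libraries. Replicates 1 and 2 of sgElovl1 were below every sgNT library and replicate 3 was inside their range. Its log2 fold change was −0.18 (95% interval −0.51 to 0.15, adjusted p = 0.428), and −0.33 without replicate 3 of both groups (adjusted p = 0.0441, range over the alternatives 0.0441 to 0.801). Ccl4 and Ccl3 kept a near-constant ratio of TPM, at 5.66, 5.90 and 6.07 in sgElovl1 and 5.76, 5.02 and 5.17 in sgNT libraries.

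Ccl5, a chemokine of effector and memory CD8+ T cells, had 1659, 1582 and 948 CPM in sgElovl1 and 1709, 1725 and 1583 CPM in sgNT libraries. The sgNT values were tight, and sgElovl1 replicates 1 and 2 lay at or just under them while replicate 3 was far below. The log2 fold change of −0.26 (95% interval −0.68 to 0.16, adjusted p = 0.374) was −0.05 without sgElovl1 replicate 3. That library also held the largest sums of macrophage (332 CPM) and dendritic cell markers (531 CPM, against 115 to 157 CPM in sgNT libraries), and their part in its Ccl5 level was not tested. Over the 10 dendritic cell markers the other sgElovl1 libraries had 178 and 242 CPM, and Clec9a, Flt3 and Siglech were near 0 in both groups. Of the 6 tested, 5 had positive fold changes and 1 was called, Zbtb46 (log2 fold change 1.26, adjusted p = 0.0246). Xcr1 had the negative value, at 30.4 ± 5.82 CPM in sgElovl1 and 33.9 ± 7.66 CPM in sgNT libraries (−0.16, adjusted p = 0.598). Cd74 (means of 147 CPM in sgElovl1 and 35.1 CPM in sgNT) and H2-Ab1 (81.9 and 39.2 CPM) were the largest in sgElovl1. Neither passed (adjusted p = 0.176 and 0.222). H2-Aa, at 28.3 ± 19.6 CPM in sgElovl1 and 5.94 ± 3.33 CPM in sgNT libraries (n = 3 each), did not overlap and did not pass (adjusted p = 0.117).

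Xcl1, whose product attracts cross-presenting dendritic cells through XCR1, was the only one of the 4 chemokines of the set with a higher mean in sgElovl1 cells. It had 663, 406 and 293 CPM in sgElovl1 libraries and 301.5, 301.5 and 234 CPM in sgNT libraries. Replicates 1 and 2 of sgElovl1 lay above every sgNT library, and replicate 3 lay just under the 2 higher sgNT libraries. The log2 fold change was 0.70 (95% interval −0.01 to 1.42, adjusted p = 0.16). With the replicate number as a block it was 0.63 and passed (adjusted p = 0.0429), in a fit that called 13.4% of all genes, as it did with the block and a gene length offset (0.61, adjusted p = 0.0462) and without sgElovl1 replicate 3 (0.94, adjusted p = 0.0322). Without sgElovl1 replicate 1 it was 0.33 and did not pass (adjusted p 0.0322 to 0.366 over the alternatives).

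The share of Xcl1 in the summed TPM of the 10 genes was 19.5, 13.7 and 11.3% in sgElovl1 libraries and 8.77, 9.46 and 7.51% in sgNT libraries. The TPM ratio of Xcl1 to Ccl5 was 0.415, 0.267 and 0.322 in sgElovl1 and 0.183, 0.181 and 0.154 in sgNT libraries. Both measures parted the groups, as descriptions without a test. In sgElovl1 replicate 3 Xcl1 itself, at 1313 TPM, lay inside the sgNT range of 964 to 1340 TPM. Ccl5, which enters both measures, was at 4074 TPM there, below every sgNT library (6279 to 7382 TPM). Xcl1 lies on chromosome 1 from 164931644 to 164935527 (minus strand) and overlaps Gm20743 on the opposite strand, which shares 5.79% of its 75-base windows and had 89, 63 and 21 expected counts in sgElovl1 and 22, 1 and 14 in sgNT libraries. NK cell markers, from another source of XCL1, summed to 1273, 897 and 1859 CPM in sgElovl1 and 855, 705 and 1616 CPM in sgNT libraries over 8 genes. Gzma, which CD8+ T cells also express, held most of that sum. Of the 5 tested, Klrb1c (log2 fold change −2.37, adjusted p = 0.0151) and Klrb1b (−1.72, adjusted p = 0.00954) were lower in sgElovl1 cells. The other 3, Gzma (0.34), Fcgr3 (1.65) and Tyrobp (1.23), had positive values and did not pass (adjusted p = 0.623, 0.231 and 0.366). Klra8 had no count, Ncr1 was at 0.0524 ± 0.0181 CPM in sgElovl1 and 0.0982 ± 0.0881 CPM in sgNT libraries, and the part of NK cells in the Xcl1 values was not tested.

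**Figure D3:**
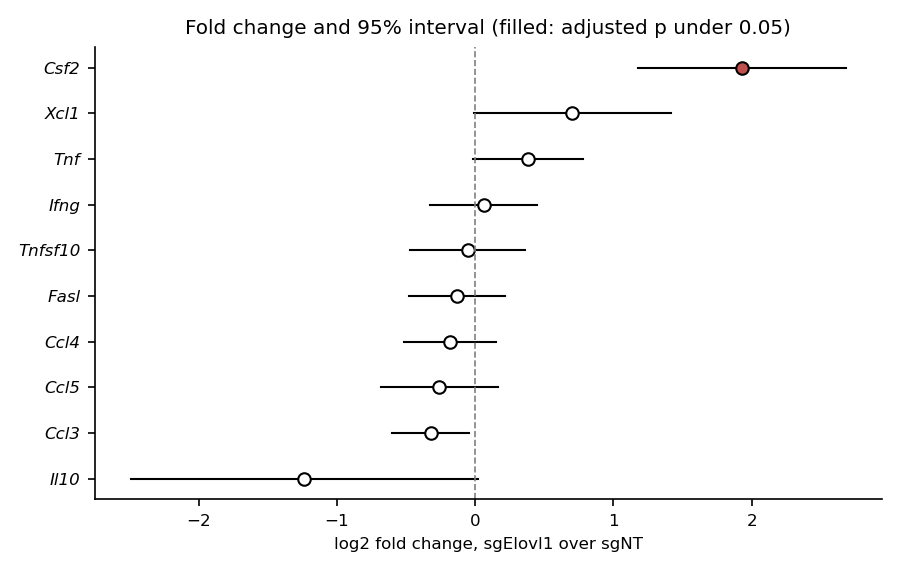
Points give the log2 fold change of sgElovl1 over sgNT of each gene and lines the 95% interval, ordered by size, with a filled point for an adjusted p under 0.05. Csf2 (1.93) is the one filled point, and Il10 (−1.24) has the widest interval.

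With 1 library left out at a time, Csf2 ranged from 1.46 to 2.16, Xcl1 from 0.33 to 0.94 and Il10 from −1.56 to −0.80 on the log2 scale. Ccl3 ranged from −0.44 to −0.24 and Tnf from 0.23 to 0.53, and each of these 5 genes kept its sign. Across the whole table, the share of genes called was 2.47% without sgElovl1 replicate 2, 3.03% without sgNT replicate 2, 3.58% without sgElovl1 replicate 1, 7.41% without sgNT replicate 1, 10.4% without sgNT replicate 3 and 21.1% without sgElovl1 replicate 3. Calls thus became fewer or more across the table. Among the members, the count called higher was 0 without sgNT replicate 2, 2 without sgElovl1 replicate 3 and 1 otherwise. The count called lower was 1 without sgElovl1 replicate 3 and 0 otherwise.

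**Figure D4:**
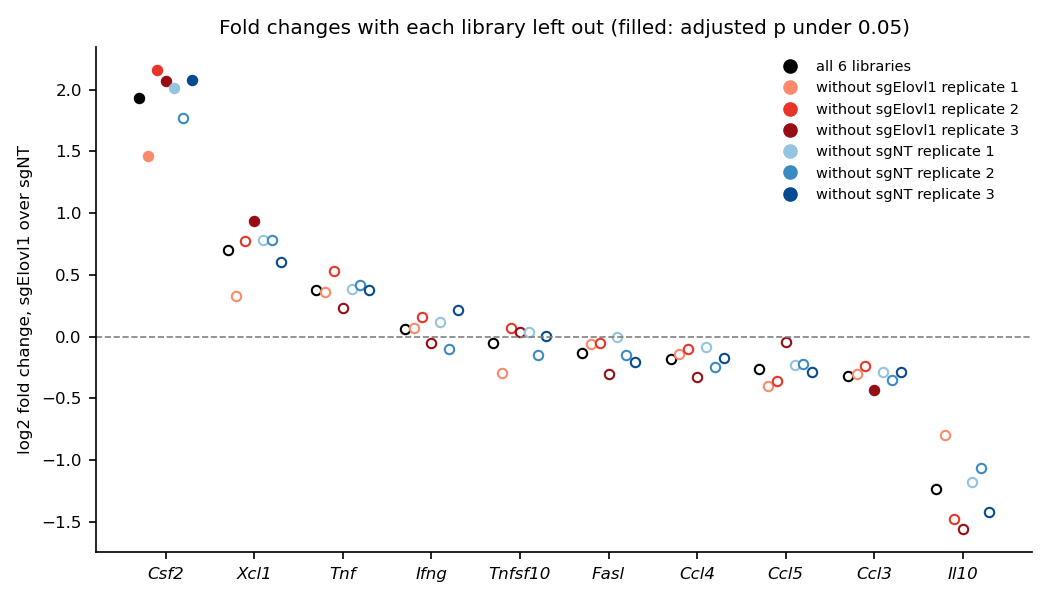
Log2 fold change of sgElovl1 over sgNT of each gene with all 6 libraries (black) and with each library left out in turn, filled where the adjusted p was under 0.05. Csf2 is filled in all but the fit without sgNT replicate 2 (1.77), and Xcl1 and Ccl3 are filled only without sgElovl1 replicate 3 (0.94 and −0.44).

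The receptors through which the 10 products act gave no call. All 14 receptor genes of the list were tested, and 0 passed in either direction in edgeR (1 higher and 0 lower at an unadjusted p under 0.05 and with DESeq2, 0 with limma-voom). Their median log2 fold change was −0.14, against −0.0041 over all tested genes, of which 13.8% were called. The smallest p belonged to Ccr1, a receptor of CCL3 and CCL5 that is abundant on myeloid cells, with 5.58, 4.26 and 11.1 CPM in sgElovl1 and 2.21, 1.21 and 3.56 CPM in sgNT libraries. Its groups did not overlap (log2 fold change 1.58, adjusted p = 0.0561), and it passed with the replicate block (1.59, adjusted p = 0.00591), with DESeq2 (1.57, adjusted p = 0.00419), without the filter on low counts (1.59, adjusted p = 0.0326) and without sgNT replicate 3 (2.03, adjusted p = 0.0328). Like the macrophage marker sum, Ccr1 was highest in sgElovl1 replicate 3, and the part of macrophages in its level was not tested. The interferon-γ receptor chain gene Ifngr1 was abundant, at 1248 ± 185 CPM in sgElovl1 and 1514 ± 74.9 CPM in sgNT libraries, and the receptor genes of GM-CSF were low, with Csf2ra at 3.60 ± 0.763 CPM in sgElovl1 and 2.59 ± 0.470 CPM in sgNT libraries (n = 3 each).

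Other cytokines of lymphocytes were mostly too low to test. Of 18 genes 6 were tested, with a median log2 fold change of 0.02 and 1 call, where 13.8% of all tested genes were called. Il4, Il5, Il9 and Il13 had no count in any library. Il2, the T cell growth factor, was not testable at 0.273 ± 0.147 CPM in sgElovl1 and 0.351 ± 0.136 CPM in sgNT libraries (n = 3 each). Osm, which encodes the interleukin-6 family cytokine oncostatin M, rose, with 7.82, 9.98 and 11.3 CPM in sgElovl1 and 5.28, 5.19 and 5.09 CPM in sgNT libraries and no overlap (log2 fold change 0.90, adjusted p = 0.0166). Its call was lost without sgElovl1 replicate 2 (adjusted p = 0.0941) or sgNT replicate 2 (adjusted p = 0.069). The lymphotoxin genes Lta and Ltb, neighbours of Tnf in the genome and in function, had log2 fold changes of 0.06 and −0.02 and did not pass.

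Among other ligands of the TNF family, 8 of 12 were tested, 3 rose and 0 fell (0 also at an unadjusted p under 0.05, with DESeq2 and with limma-voom), where 8.64% of all tested genes rose. The median of the 8 was 0.41 on the log2 scale. Cd40lg, which encodes the ligand of the costimulatory receptor CD40 on antigen-presenting cells, had 3.27, 3.79 and 1.88 CPM in sgElovl1 and 0.724, 0.9746 and 0.414 CPM in sgNT libraries (log2 fold change 2.07, adjusted p = 0.0121). Tnfsf8, the CD30 ligand gene, had 16.1, 13.2 and 6.40 CPM in sgElovl1 and 4.90, 3.63 and 1.78 CPM in sgNT libraries (1.79, adjusted p = 0.0399). For both genes the groups did not overlap and replicate 3 was the lowest library of each group. Tnfsf9, encoding the ligand of the costimulatory receptor 4-1BB, was higher by 0.46 on the log2 scale (adjusted p = 0.0474), a call that ended with the replicate block (adjusted p = 0.0597) and without any 1 library (adjusted p 0.0672 to 0.16). Cd40lg was lost without sgElovl1 replicate 1 (adjusted p = 0.0616) or 2 (adjusted p = 0.0931). Tnfsf8 was lost without sgElovl1 replicate 1 or 2 (adjusted p = 0.132 and 0.156) or sgNT replicate 1 or 2 (adjusted p = 0.0574 and 0.151) with the gene length offset (adjusted p = 0.0643) and without the filter on low counts (adjusted p = 0.121). On log2(TPM + 1), which understates changes of low genes, the values were 1.27 for Cd40lg and 1.16 for Tnfsf8.

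Of 20 other chemokine genes 10 were tested, with a median log2 fold change of 1.06, and 1 rose, where 8.64% of all tested genes rose. At an unadjusted p under 0.05 the counts were 4 higher and 0 lower, with DESeq2 3 and 0, and with limma-voom 2 and 0. Ccl9, which encodes a myeloid chemokine of the mouse and lies in the same chemokine family as Ccl3, had 11.2, 15.4 and 16.5 CPM in sgElovl1 and 5.96, 4.21 and 5.80 CPM in sgNT libraries (log2 fold change 1.43, adjusted p = 0.003). Its groups did not overlap, and it passed in all 16 alternatives. Ccl6, chosen after its values were seen, averaged 25.5 ± 21.1 CPM in sgElovl1 and 4.48 ± 1.61 CPM in sgNT libraries (n = 3 each) without passing (adjusted p = 0.0936). Ccl1, likewise chosen afterwards, was the most abundant of the list, at 411 ± 159 CPM in sgElovl1 and 275 ± 17.5 CPM in sgNT libraries (adjusted p = 0.151). Macrophages express Ccl6 and Ccl9, their marker sum was higher in each sgElovl1 than in each sgNT library, and its part in these values was not tested.

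**Figure D5:**
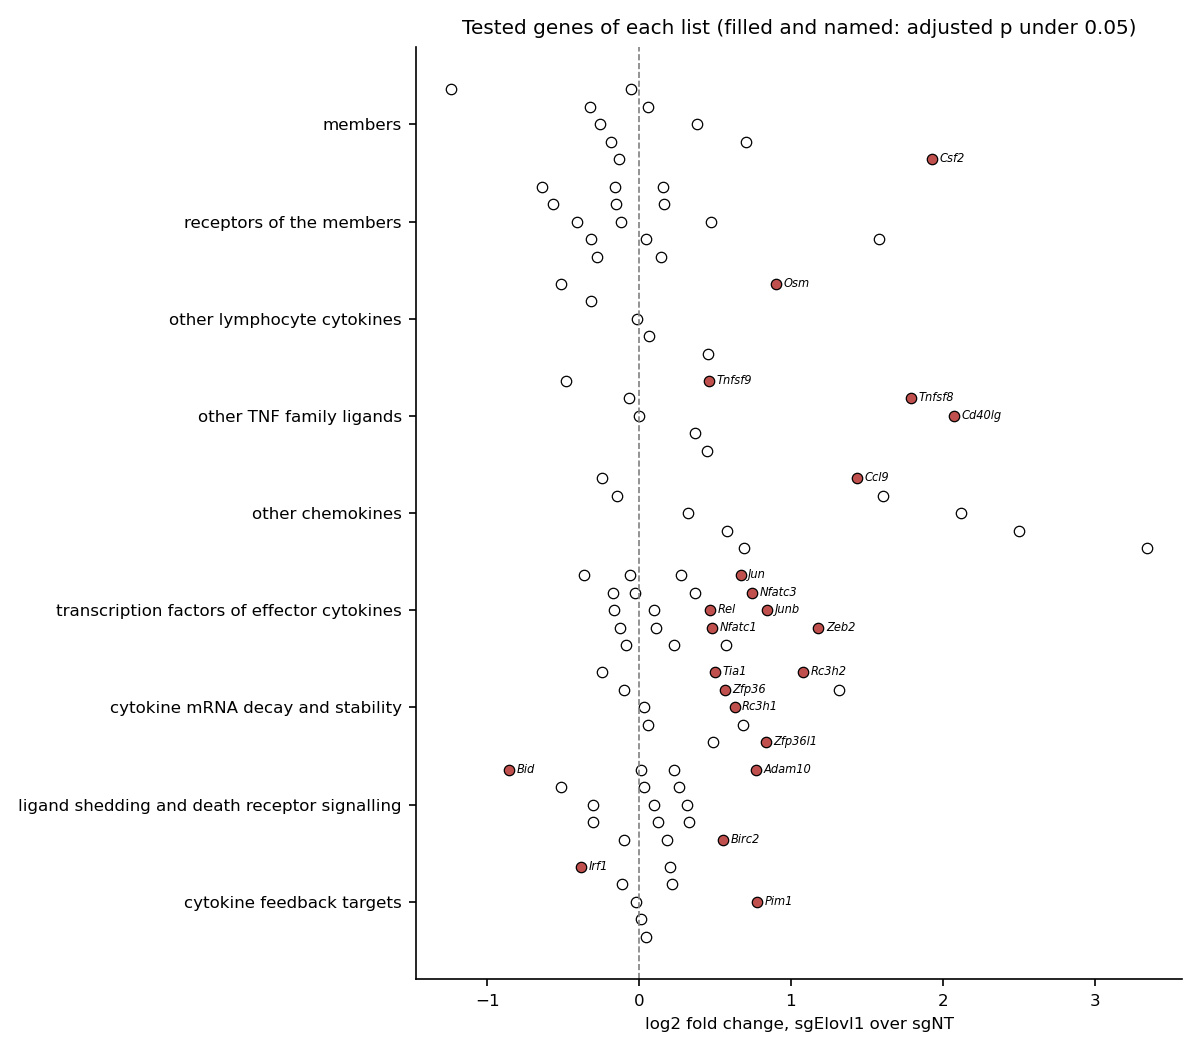
Each point is the log2 fold change of sgElovl1 over sgNT of a tested gene, grouped by list, with genes past an adjusted p of 0.05 filled and named and height within a row without meaning. Called genes are mostly on the higher side, 19 against 2 outside the top row, and no receptor gene is filled. Over all tested genes 8.64% were called higher and 5.13% lower.

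Transcription factors that control effector cytokine genes held 6 higher and 0 lower genes among 19 tested of 20 (1 lower at an unadjusted p under 0.05 and with DESeq2, 0 with limma-voom), with a median of 0.23. Over all tested genes 8.64% were called higher and 5.13% lower. Zeb2, a repressor linked to terminal effector cells, had 27.5, 24.7 and 24.4 CPM in sgElovl1 and 13.3, 8.50 and 11.9 CPM in sgNT libraries (log2 fold change 1.18, adjusted p = 0.00299). Nfatc3, encoding a calcium-driven factor, had 76.3, 65.8 and 62.9 CPM in sgElovl1 and 43.7, 40.3 and 38.2 CPM in sgNT libraries (0.75, adjusted p = 0.00403) and passed in all 16 alternatives, with 0.43 under the gene length offset and 1.23 on log2(TPM + 0.1). In both cases each sgElovl1 library exceeded each sgNT library. The AP-1 genes Jun (0.67, adjusted p = 0.0131) and Junb (0.84, adjusted p = 0.038) rose too, as did Nfatc1 (0.48) and Rel (0.47). Fos, a further AP-1 gene, had −0.17 (adjusted p = 0.806), Tbx21, which encodes T-bet, −0.12 (adjusted p = 0.469) and Eomes −0.03 (adjusted p = 0.914). Zeb2 did not pass on log2(TPM + 1) (adjusted p = 0.0657). Jun was lost without sgElovl1 replicate 1 or 2 (adjusted p = 0.0728 and 0.0692) or sgNT replicate 1 or 2 (adjusted p = 0.0577 and 0.0766). Junb was lost without sgElovl1 replicate 1 or 2 (adjusted p = 0.149 and 0.162) or any sgNT library (adjusted p 0.0959 to 0.143) and without the filter on low counts (adjusted p = 0.0675). Dissociation stress genes, which include Jun and Junb, summed to 3337, 3284 and 2456 CPM in sgElovl1 and 2335, 2281 and 2115 CPM in sgNT libraries, and the part of tissue handling was not tested.

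Regulators of cytokine message decay and stability had 5 higher and 0 lower genes of 12 tested (0 lower also at an unadjusted p under 0.05, with DESeq2 and with limma-voom), with a median of 0.53. Among all tested genes the shares called were 8.64% higher and 5.13% lower. Rc3h2 and Rc3h1, which encode the Roquin proteins that bind stem-loops in cytokine messages, rose by 1.08 (adjusted p = 0.0112) and 0.63 (adjusted p = 0.0372). Zfp36, the gene of the AU-rich element binding protein tristetraprolin, had 131, 142 and 102 CPM in sgElovl1 and 76.9, 79.1 and 97.3 CPM in sgNT libraries (0.56, adjusted p = 0.0297), and its paralogue Zfp36l1 had 27.2, 23.4 and 15.1 CPM in sgElovl1 and 11.97, 11.5 and 13.3 CPM in sgNT libraries (0.84, adjusted p = 0.022). For Zfp36 and Zfp36l1, replicate 3 showed the smallest gap between the groups. Tia1, encoding a translational repressor, rose by 0.50 (adjusted p = 0.0304). Elavl1, whose product HuR stabilises AU-rich messages, had −0.25 and Zc3h12a, which encodes Regnase-1, 0.69, and neither passed (adjusted p = 0.183 and 0.118).

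Several of these calls were thin. Zfp36 did not pass with the replicate block (adjusted p = 0.053) or the gene length offset (adjusted p = 0.0515), and it was lost without sgElovl1 replicate 1 or 2 (adjusted p = 0.107 and 0.159) or sgNT replicate 1 or 2 (adjusted p = 0.111 and 0.128). The same 4 omissions ended the Zfp36l1 call (adjusted p 0.0852 to 0.117). Rc3h2 was lost without sgElovl1 replicate 1 or 2 (adjusted p = 0.0559 and 0.0602) or sgNT replicate 2 (adjusted p = 0.0696), and Tia1 without sgElovl1 replicate 1 or 2 (adjusted p = 0.107 and 0.132) or sgNT replicate 2 or 3 (adjusted p = 0.0889 and 0.0563). Set beside the AU-rich elements, the 4 members with at least 4 heptamers had log2 fold changes of 1.93 (Csf2), 0.38 (Tnf), 0.06 (Ifng) and −1.24 (Il10). Of these only Csf2 passed, and a link between the elements and the fold changes was not tested.

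Genes of ligand shedding and death receptor signalling, downstream of TNF, FAS ligand and TRAIL, gave 2 higher and 1 lower call among 16 tested, with a median of 0.11. At an unadjusted p under 0.05 the counts were 3 higher and 4 lower, with DESeq2 2 and 2, and with limma-voom 2 and 1. By the main test 8.64% of all tested genes were higher and 5.13% lower. Adam10, encoding a protease that sheds membrane ligands, FAS ligand among them, had 112, 104 and 124 CPM in sgElovl1 and 63.6, 66.3 and 69.9 CPM in sgNT libraries (log2 fold change 0.77, adjusted p = 0.003). Bid, which links death receptors to mitochondria, fell, with 35.0, 41.1 and 50.3 CPM in sgElovl1 and 80.0, 83.8 and 65.3 CPM in sgNT libraries (−0.86, adjusted p = 0.0061). Neither gene overlapped between the groups, and both passed in all 16 alternatives, Adam10 with a smaller value of 0.45 under the gene length offset (adjusted p = 0.0476). Birc2, which encodes an inhibitor of apoptosis in the TNF receptor complex, rose by 0.55 (adjusted p = 0.0155) and was lost without sgElovl1 replicate 1 or 2 (adjusted p = 0.0757 and 0.099) or sgNT replicate 2 (adjusted p = 0.0642). Adam17, the gene of the TNF-converting enzyme, had 0.26 (adjusted p = 0.151) and Casp8, the initiator caspase gene, −0.31 (adjusted p = 0.128).

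Genes induced by cytokine signals, read here as feedback targets, split, with a median of 0.03. Of 8 tested, Pim1, a kinase gene induced by STAT factors, rose with 23.6, 21.3 and 14.7 CPM in sgElovl1 and 10.2, 12.2 and 12.4 CPM in sgNT libraries (log2 fold change 0.78, adjusted p = 0.0219). Irf1, an interferon-induced transcription factor gene, fell with 248, 270 and 229 CPM in sgElovl1 and 311, 313 and 351 CPM in sgNT libraries (−0.38, adjusted p = 0.0479). Each pair of groups was free of overlap. The list thus gave 1 call in each direction, where 8.64% of all tested genes were higher and 5.13% lower. Pim1 was lost without sgElovl1 replicate 1 or 2 (adjusted p = 0.108 and 0.121) or sgNT replicate 1 or 2 (adjusted p = 0.087 and 0.0871). Irf1 was lost with the replicate block (adjusted p = 0.0711), with the gene length offset (adjusted p = 0.106), without the filter on low counts (adjusted p = 0.0635) and without sgElovl1 replicate 1 or 2 or any sgNT library (adjusted p 0.109 to 0.146). The suppressor genes Socs1 (0.20), Socs3 (0.01) and Cish (0.22) did not pass.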

How the data were processed

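Per the submitters' processing notes, the authors mapped reads to mm10 with STAR 2.7.7a, quantified genes with RSEM 1.3.1 and tested with DESeq2 1.36.0. The annotation release and whether counting used strand are not given in the sources used here. The deposited tables hold expected counts (estimated reads per gene, unscaled), TPM (scaled by length and library by the authors) and gene lengths in bases. Symbols, positions and 3′ untranslated sequences came from GENCODE M21 on GRCm38.

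Expected counts were rounded and tested in R 4.3.3 with edgeR 4.0.16: filterByExpr (minimum count 10), TMM normalisation, robust quasi-likelihood fits with group as the only term, and Benjamini-Hochberg adjustment over the 12546 genes tested. Every adjusted p is from this two-sided test unless another is named. CPM are TMM-normalised per 1000000. The biological coefficient of variation was 0.22. The steps were tested on simulated data. Alternatives were DESeq2 1.42.0 (the authors' kind of test), DESeq2 size factors, limma 3.58.1 voom, no filter, limma on log2(TPM + 1) and log2(TPM + 0.1), gene length offsets, a replicate block, and fits without each library or without replicate 3 of both groups.

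The labels number the replicates 1 to 3 in both groups. Over 12546 genes, deviations of same-numbered libraries from their group means correlated at 0.212, 0.245 and 0.405, all above 0.1. The numbers were therefore used as a block in alternative fits, whereas the main test treated the libraries as unpaired. Libraries of unlike number gave 0.169 (sgElovl1 replicate 1 with sgNT replicate 2), 0.107 (sgElovl1 replicate 2 with sgNT replicate 1) and negative values for the rest, so the 0.1 mark does not part numbers 1 and 2. A pairing by number thus rests on the data alone, since the labels name no shared mouse or day.

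The members and lists were chosen with earlier results of these data known. Genes named were Elovl1, the 10 members, and from each pathway list every gene past the threshold, or where more than 4 passed the 4 with the smallest p, or where none passed the 1 with the smallest p. Others named (Nfatc1, Rel, Rc3h1, cell type markers and genes that did not pass) were picked after their values were seen. No protein sequence was used here.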

Additional observations from a re-analysis of the deposited data

How the results depend on the processing

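Csf2 was called higher in 15 of 16 alternatives, and no alternative turned its sign. Members called higher numbered 1; they were 2 with the replicate block and 2 with the length offset and block, Xcl1 being added, and 0 to 2 when 1 library was left out. Members called lower numbered 0; they were 1 with DESeq2 (Il10), 3 without replicate 3 of both groups (Ccl3, Ccl4 and Fasl) and 0 to 1 when 1 library was left out. Signs turned for Ifng without sgElovl1 replicate 3 (−0.055) or sgNT replicate 2 (−0.10), with a range of −0.10 to 0.22 when 1 library was left out, and for Tnfsf10 without sgElovl1 replicate 2 (0.074) or 3 (0.034), sgNT replicate 1 (0.040) or 3 (0.0025), or replicate 3 of both groups (0.075), with a range of −0.30 to 0.074 when 1 library was left out. Beside Xcl1, Ccr1, Tnfsf9, Zfp36 and Irf1, the replicate block, which gave 1119 higher and 557 lower genes, changed no call of a gene named by the rule. Without the filter on low counts, Tnfsf8, Junb and Irf1 did not pass and Ccr1 did. With the length offset and block, Jun and Zfp36l1 did not pass, among others. On log2(TPM + 1), Tnfsf9, Zeb2, Junb, Zfp36l1, Tia1, Pim1 and Irf1 did not pass. Among all genes, 1084 were higher and 643 lower. The length offset gave 721 and 437, the length offset with the block 741 and 361, DESeq2 1258 and 1047, log2(TPM + 1) 788 and 135, log2(TPM + 0.1) 828 and 139, and the fit without replicate 3 of both groups 1947 and 2039. Leaving out 1 library gave 279 to 1414 higher and 42 to 1304 lower. In the other lists 19 genes were higher and 2 lower; DESeq2 gave 24 and 5, log2(TPM + 1) 13 and 1, log2(TPM + 0.1) 15 and 1, the fit without replicate 3 of both groups 36 and 13, and leaving out 1 library 4 to 25 and 1 to 6. The causes of these changes were not tested. Il10, at 22 to 214 expected counts, had the widest interval of the members (−2.49 to 0.02).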
